A study of Mus musculus with 18 samples.

Results

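The genes described here are 38 listed members of the glycolytic pathway and of the transcriptional response to low oxygen, of which 35 were measured among the 19084 genes named on the arrays. A member was measured where a probe carried its symbol in the platform annotation, and where a gene had several probes the one with the highest mean over the 18 arrays stood for it. No named probe was found for Gpi1, Gapdh and Eno1, which are not analysed here. Of the 35 measured members, 34 exceeded the background limit of an intensity of 30 in at least 1 group, and Mxi1, a repressor of the Myc network, lay under it on every array of all 6 groups (group means of 8.72 to 12.9).

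RNA from C57Bl/6 mouse cells was hybridized to 18 microarrays with 1 dye each, 3 arrays for each of 6 groups. Fresh basophils came from the bone marrow of mice given a complex of interleukin-3 (IL-3) and an antibody against it 3 days earlier, received no drug, and carried no listed genotype. Mast cells had grown from bone marrow for 4 weeks in 20 ng/ml IL-3, also without drug or a listed genotype. The other groups were purified basophils kept for 5 days in 20 ng/ml IL-3. Their genotype was Cebpa +/+ RosaYFP/creER (wild type) or Cebpa f/f RosaYFP/creER (floxed), each cultured with 100 nM 4-hydroxytamoxifen for 5 days (treated) or without it (untreated). Cebpa encodes a transcription factor of myeloid cells, and the floxed alleles are removed by Cre, which the drug activates. All 4 cultured basophil groups, the wild type ones included, carried the Cre and the reporter, so fresh and cultured basophils differed in listed genotype as well as in culture. The ages of the mice were not given in the sources used here, and neither was the origin of the 3 arrays of a group in separate mice or cultures. The p-values therefore rest on the spread between arrays, which may be technical.

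Glycolysis turns glucose into pyruvate in a chain of enzymes that begins with glucose transporters and hexokinases and ends with pyruvate kinase, and lactate dehydrogenase and the lactate exporter Slc16a3 dispose of pyruvate when it does not enter mitochondria. Hypoxia-inducible factors (HIFs) are dimers whose alpha subunits, Hif1a and Epas1, are hydroxylated and destroyed while oxygen is present. The prolyl hydroxylases Egln1 and Egln3 carry out that step. Stabilised HIF raises transcription of many glycolytic genes, of the angiogenic factor Vegfa, of the mitophagy receptors Bnip3 and Bnip3l and of the hydroxylases themselves, and myeloid cells are known for relying on glycolysis.

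HIF binds a short core with the letters ACGTG or GCGTG. Both were searched on both strands in the 250 bases upstream of each transcription start in RefSeq (assembly GRCm38.p6). ACGTG occurs on both strands of the palindrome CACGTG, the E-box letters that other factors also bind. Promoters were found for 31 of the 35 measured members and not for Slc2a3, Bnip3l, Ndrg1 and Epas1. At least 1 upstream window with either motif was present for 29 of those 31 genes (93.5%), against 41.5% of all 27025 genes in the table. Of 45 member windows 80.0% held either motif, against 38.6% of all 32851 windows. ACGTG alone was in 55.6% of member windows and 16.6% of all windows. Either motif was present for 13 of the 13 members with a window that were higher in untreated floxed cells, and for 16 of the 18 others (88.9%). The members were listed for their place in glycolysis and the hypoxia response, so these shares describe the list and test nothing. A match is a run of letters in this window and says nothing of binding. The following windows belong to Bnip3 (chr7:138909507-138909756, minus strand), Egln3 (chr12:54203875-54204124, minus strand) and P4ha2 (chr11:54100674-54100923, plus strand), shown because they are the 3 members at least 2-fold higher in untreated floxed than in untreated wild type cells. The window of Ldha (chr7:46845554-46845803, plus strand, the first of its 2 listed starts) is shown as one rich in the motif whose gene did not pass that test. Each is written 5′ to 3′ on the gene's strand with matches to either motif, on either strand, in capitals.
Bnip3: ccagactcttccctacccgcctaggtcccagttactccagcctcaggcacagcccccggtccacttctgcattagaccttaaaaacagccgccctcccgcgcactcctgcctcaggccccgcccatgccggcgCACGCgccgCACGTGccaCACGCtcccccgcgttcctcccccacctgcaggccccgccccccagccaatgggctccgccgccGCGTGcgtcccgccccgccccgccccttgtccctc
Egln3: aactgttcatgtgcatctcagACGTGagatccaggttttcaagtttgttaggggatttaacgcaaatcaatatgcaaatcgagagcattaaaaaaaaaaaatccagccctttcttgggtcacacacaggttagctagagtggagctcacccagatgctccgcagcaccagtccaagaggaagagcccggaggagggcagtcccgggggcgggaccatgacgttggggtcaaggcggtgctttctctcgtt
P4ha2: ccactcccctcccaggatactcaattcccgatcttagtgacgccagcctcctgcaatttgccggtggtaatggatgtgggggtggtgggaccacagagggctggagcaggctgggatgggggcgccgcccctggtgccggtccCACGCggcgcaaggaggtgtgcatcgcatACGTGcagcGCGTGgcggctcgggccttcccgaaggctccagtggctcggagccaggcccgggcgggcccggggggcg
Ldha: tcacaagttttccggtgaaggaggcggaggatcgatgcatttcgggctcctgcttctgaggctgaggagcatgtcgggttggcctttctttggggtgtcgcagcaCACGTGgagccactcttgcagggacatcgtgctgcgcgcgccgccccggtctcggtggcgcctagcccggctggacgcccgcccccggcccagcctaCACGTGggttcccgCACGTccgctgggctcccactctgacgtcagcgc
ACGTG matched 2 times in the Bnip3 window, 1 time in Egln3, 1 time in P4ha2 and 5 times in Ldha, counting both strands. GCGTG matched 3 times in Bnip3, 2 times in P4ha2 and 0 times in Egln3 and Ldha.

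Arrays held 26423 probes, with median intensities of 24 to 42 and 47.3 to 54.8% of probes above 30. Arrays of a group correlated across probes at 0.990 to 0.993 and arrays of different groups at 0.915 to 0.987, and no pair was identical. Cebpa, the targeted gene, read 2226 to 2973 in wild type cultures, 935 to 1055 in untreated floxed and 57.8 to 69.4 in treated floxed cells. It was thus 2.39-fold lower in floxed than in wild type cells even without the drug (log2 difference -1.25 ± 0.11 SE, adjusted p = 3.84e-07), which touches every comparison of the untreated genotypes. The basophil protease gene Prss34 averaged 45013 in fresh basophils, 48945 in untreated wild type cultures and 1525 in mast cells. The mast cell markers Mcpt2 and Tph1 averaged 20585 and 16784 in mast cells and lay at background in fresh basophils (12.5 and 17.3). The other measured mast cell markers were also higher in mast cells, except Cpa3 (63431.1 in fresh basophils and 63345.8 in mast cells). Of 8 basophil markers, Fcer1a (16098.2 and 22979.4) and Ms4a2 (7075.2 and 8279.7) were higher in mast cells. The others were higher in fresh basophils, Cd200r3 by little (21182.0 and 19199.4). Values below are quantile normalized intensities. Fold changes come from log2(intensity + 16) in 1 limma model of all 18 arrays, adjusted over 26423 probes with a threshold of 0.05, ± is the SE of a log2 difference unless marked SD, and n is 3 arrays per group throughout. Where a probe was at background in the dimmer group, the fold is a lower bound against the limit of 30. Counts of genes past 2-fold use the fitted log2 differences, which for such probes can exceed that bound.

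**Figure D1:**
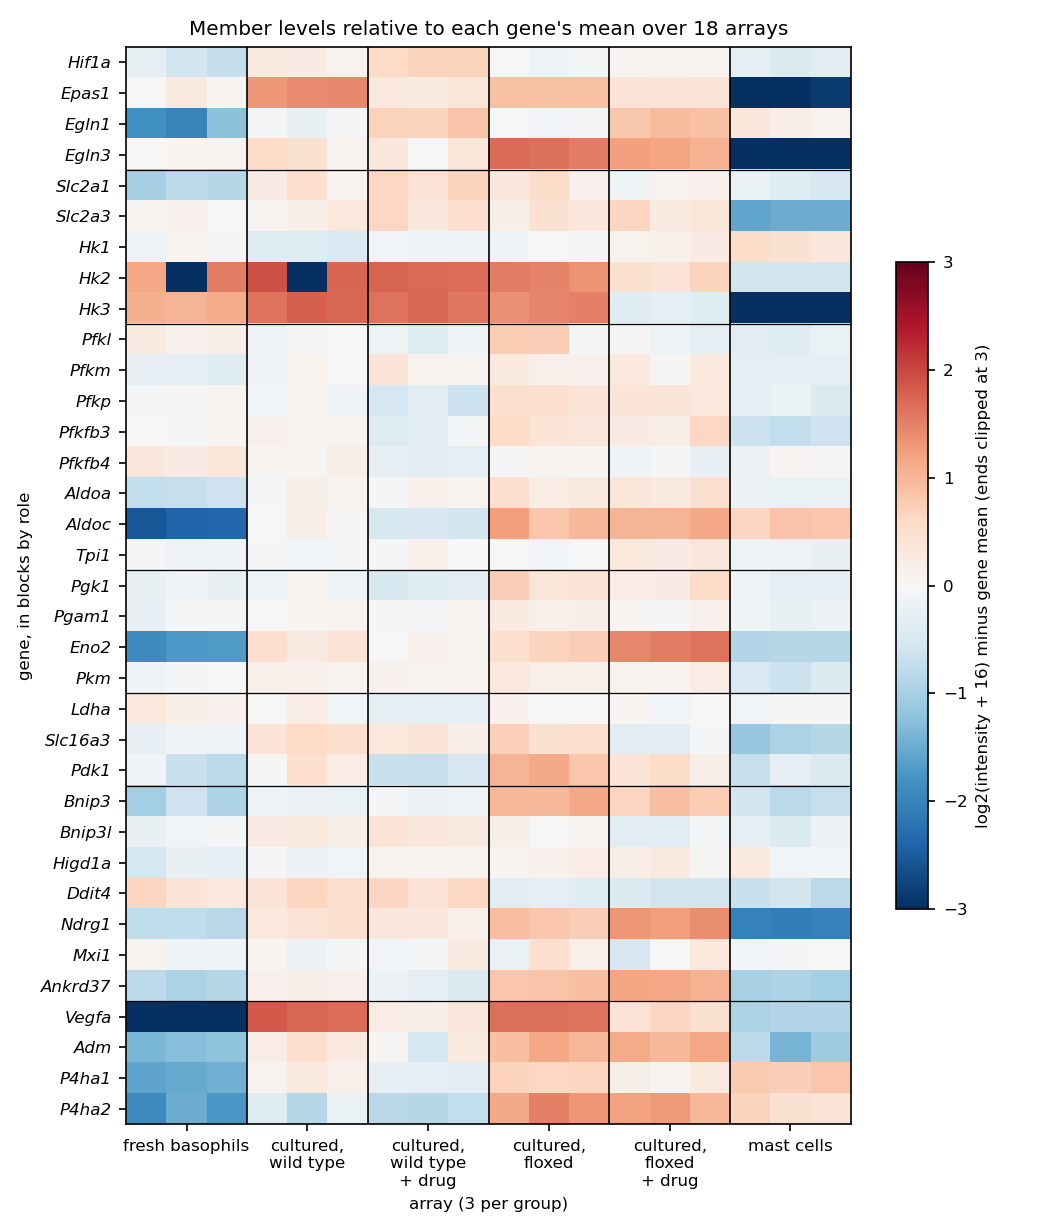
Heat map of 35 genes (rows, ordered by role) on 18 arrays (columns, by group). Colour is log2(intensity + 16) minus the gene's mean over all arrays, clipped at 3 log2 units. Vegfa is lowest on the 3 arrays of fresh basophils (114 to 124) and highest on the untreated cultures (3945 to 4612), and Hk3 is lowest on the mast cell arrays (29.4 to 33.1).

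The HIF subunits and oxygen sensors each had a pattern of their own. Epas1, which encodes HIF-2 alpha, read 154, 193 and 163 in fresh basophils, 406.5, 443 and 445 in untreated wild type, 193, 189 and 205 in treated wild type, 296.5, 298 and 296 in untreated floxed, 212, 206.5 and 208 in treated floxed and 0.444, 5.44 and 7.22 in mast cells. Untreated wild type cells were highest, and every basophil array exceeded every mast cell array. Epas1 was at least 14.4-fold higher in untreated wild type basophils than in mast cells (adjusted p = 2.67e-15) and at least 5.65-fold higher in fresh basophils (adjusted p = 1.71e-13). It was 2.41-fold lower in fresh than in cultured wild type cells (log2 difference -1.27 ± 0.11, adjusted p = 6.30e-08). In bulk RNA, fewer cells of a type and less RNA per cell cannot be told apart, here and in every comparison below.

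Egln3 read 1645, 1698 and 1764 in fresh basophils, 2465, 2246 and 1717 in untreated wild type, 2078, 1632 and 2087 in treated wild type, 5309.7, 5119.7 and 4741 in untreated floxed, 3829.8, 3747 and 3357 in treated floxed and 143, 141 and 121 in mast cells. Floxed arrays all lay above wild type arrays, and mast cells lay far below every basophil array. The gene was 14.2-fold higher in untreated wild type basophils than in mast cells (3.83 ± 0.13, adjusted p = 1.17e-13) and 2.37-fold higher in untreated floxed than in untreated wild type cells (1.25 ± 0.13, adjusted p = 2.40e-06). The related hydroxylase Egln1 read 10.2, 7.39 and 24.1 in fresh basophils, 74.2, 64.2 and 75.8 in untreated wild type, 135, 133 and 154 in treated wild type, 77.3, 73.1 and 74.8 in untreated floxed, 148, 165 and 156 in treated floxed and 102, 92.4 and 84 in mast cells. Treated arrays were the highest in both genotypes, and fresh basophils were at background. Egln1 was at least 2.37-fold lower in fresh than in cultured wild type basophils (adjusted p = 1.32e-07). Hif1a, the HIF-1 alpha subunit whose protein rather than RNA is the known point of control, varied less, with group means of 166.9 in fresh basophils to 390.2 in treated wild type cells.

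Among glucose transporters and hexokinases, Hk3 set the basophils apart most. Hk3, a hexokinase of myeloid cells, read 4559.7, 4419.8 and 4673 in fresh basophils, 6743, 7460.4 and 7119 in untreated wild type, 6685, 7131 and 6498 in treated wild type, 5611, 5946 and 6217 in untreated floxed, 1684, 1772 and 1664 in treated floxed and 33.1, 30.6 and 29.4 in mast cells. It was 151.0-fold higher in untreated wild type basophils than in mast cells (7.24 ± 0.075, adjusted p = 2.20e-19) and 3.94-fold lower in treated floxed than in treated wild type cells (-1.98 ± 0.075, adjusted p = 4.91e-12). Sums of neutrophil and of monocyte and macrophage markers were, like Hk3, lower in treated floxed than in treated wild type cells and lowest in mast cells, though unlike Hk3 the neutrophil sums were highest in fresh basophils. The summed intensity of 10 neutrophil markers, of which 9 exceeded background in fresh and in wild type basophils (S100a8 did not in any group), was 86801 to 89921 in fresh basophils, 17151 to 19309 in untreated wild type, 15788 to 16204 in treated wild type, 8461 to 9018 in untreated floxed, 2194 to 2421 in treated floxed and 594 to 646 in mast cells. The defining neutrophil genes Elane and Ngp were at background in treated floxed cells, and Cxcr2 and Ngp in mast cells. For 7 monocyte and macrophage markers the sums were 14717 to 16779, 11644 to 13521, 14206 to 14805, 9068 to 10410, 6769 to 7019.8 and 600.2 to 613 in the same order of groups, with C1qa, C1qb, Mrc1 and Csf1r at background in mast cells. Single markers went both ways. Mean Cxcr2 was 1013.9 in fresh, 4972.2 in untreated wild type and 4184.9 in treated wild type cells. Lcn2 was higher in untreated wild type (4039.0) than in fresh cells (3179.9). Other neutrophil markers above background were highest in fresh cells. Mmp9 was higher in treated floxed (139.7) than in treated wild type cells (83.0). Adgre1, Mrc1, Cd68 and Marco were lower in fresh than in wild type cultures, and C1qa, C1qb and Csf1r higher. The part of these cells in the Hk3 result was not tested.

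Hk2, the inducible hexokinase, had a spot of 5.67 on fresh replicate 2 and 7.33 on untreated wild type replicate 2, where the other arrays of those groups read 11657 and 14988, and 19517 and 17455. Its limma tests on all arrays carried an SE of 2.2 or more and did not pass in any comparison (adjusted p of 0.396 to 0.934). With those spots set to missing, a choice made after the values were seen, Hk2 was higher in untreated wild type basophils than in mast cells (2.38 ± 0.12, adjusted p = 1.92e-10) and lower in treated floxed than in treated wild type cells (-1.19 ± 0.10, adjusted p = 4.72e-07). In that fit it was also lower with the drug in floxed cells (-0.95 ± 0.10, adjusted p = 1.06e-05). The remaining arrays read 17368, 17014 and 16584 in treated wild type, 15202, 14553 and 13249 in untreated floxed, 7279, 6831 and 8224 in treated floxed and 3462, 3566 and 3543 in mast cells. Treated floxed arrays lay below all other cultured basophil arrays except the failed spot.

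Slc2a1, the broadly expressed glucose transporter GLUT1, read 275, 320.5 and 305 in fresh basophils, 674, 799 and 609.8 in untreated wild type, 882, 775 and 923 in treated wild type, 723, 830.3 and 619 in untreated floxed, 518, 606 and 625 in treated floxed and 493, 433 and 395 in mast cells. Fresh basophils were lowest, 2.24-fold below untreated wild type cultures (-1.16 ± 0.13, adjusted p = 1.23e-06). The high-affinity transporter Slc2a3 read 5046, 5259 and 4778 in fresh basophils, 5074, 5496 and 5976 in untreated wild type, 7339.7, 6079 and 6799.6 in treated wild type, 5384, 6553 and 6023 in untreated floxed, 7484, 5730.4 and 6110.5 in treated floxed and 1619, 1703 and 1704 in mast cells. Mast cell arrays lay below every basophil array, and Slc2a3 was 3.26-fold higher in untreated wild type basophils than in mast cells (1.71 ± 0.11, adjusted p = 9.06e-10). Hk1, the constitutive hexokinase, ranged from a mean of 840.7 ± 21.6 (SD) in untreated wild type basophils to 1541.6 ± 108.3 (SD) in mast cells.

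In upper glycolysis the largest differences belonged to aldolase C. Aldoc read 417, 456 and 476 in fresh basophils, 2498, 2855 and 2552 in untreated wild type, 1783, 1751 and 1676 in treated wild type, 5879, 4427 and 4929.5 in untreated floxed, 5074, 5016 and 5597 in treated floxed and 3904, 4474 and 4462 in mast cells. Fresh basophils were lowest and floxed cells had the highest means, with no overlap between genotypes at the same treatment. Aldoc was 5.69-fold lower in fresh than in cultured wild type basophils (-2.51 ± 0.10, adjusted p = 5.17e-12) and 2.99-fold higher in treated floxed than in treated wild type cells (1.58 ± 0.10, adjusted p = 4.32e-09). The ubiquitous aldolase Aldoa had group means from 7648.1 ± 331.8 (SD) in fresh basophils to 15888.1 ± 1165.4 (SD) in treated floxed cells. Triose phosphate isomerase, Tpi1, stayed between means of 14628.1 in mast cells and 20181.1 in treated floxed cells. Of the phosphofructokinase genes, Pfkp had means of 44.4 in treated wild type to 100.7 in untreated floxed cells and Pfkm of 132.4 in fresh basophils to 194.2 in treated floxed cells. Pfkl lay at background in 5 groups and reached 31.2 and 30.2 on 2 of the 3 untreated floxed arrays. Pfkfb3 and Pfkfb4 make the allosteric activator of phosphofructokinase. Pfkfb3 had means of 749.5 in mast cells to 1640.8 in untreated floxed cells, and Pfkfb4 of 556.3 in treated wild type cells to 854.3 in fresh basophils.

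In lower glycolysis only Eno2, the neuronal-type enolase, passed with a 2-fold difference in any comparison other than the interaction. It read 12.2, 15.4 and 16 in fresh basophils, 130.0, 108 and 122 in untreated wild type, 86.4, 96.8 and 94.2 in treated wild type, 127, 148 and 157 in untreated floxed, 267, 286 and 304 in treated floxed and 40.4, 41.5 and 41.2 in mast cells. Fresh basophils were at background, at least 3.98-fold below untreated wild type cultures (adjusted p = 7.92e-12). Treated floxed arrays lay above all others, 2.78-fold above treated wild type cells (1.48 ± 0.092, adjusted p = 2.38e-09). Phosphoglycerate kinase, Pgk1, had means of 11656.2 ± 606.2 (SD) in treated wild type to 21815.3 ± 3252.4 (SD) in untreated floxed cells. Phosphoglycerate mutase, Pgam1, spanned means of 11928.6 in mast cells to 15630.7 in untreated floxed cells and pyruvate kinase, Pkm, of 9580.1 to 15646.5 in the same groups.

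At the exit of the pathway, the lactate exporter Slc16a3 read 586, 647 and 639.6 in fresh basophils, 954, 1067 and 1010.4 in untreated wild type, 874, 914 and 804 in treated wild type, 1166, 959 and 1014 in untreated floxed, 559.9, 548 and 665 in treated floxed and 309, 354 and 378 in mast cells. Treated floxed cells lay below the other cultured basophils, and mast cells were lowest, 2.83-fold below untreated wild type basophils (1.50 ± 0.10, adjusted p = 2.25e-09). Pdk1, the kinase that shuts off pyruvate dehydrogenase, read 27.6, 13.6 and 10.6 in fresh basophils, 31.9, 50.2 and 38.5 in untreated wild type, 13.6, 12.9 and 16.9 in treated wild type, 79.3, 87.4 and 67.1 in untreated floxed, 46.4, 53.1 and 37.2 in treated floxed and 13.2, 22.4 and 18.5 in mast cells. It was at background in fresh basophils, treated wild type cells and mast cells, and the floxed arrays lay above the wild type arrays at the same treatment. The fold in treated cells was at least 1.50 (adjusted p = 2.01e-04). Ldha, the main lactate dehydrogenase subunit, had means of 14745.7 ± 72.1 (SD) in treated wild type cells to 20673.6 ± 1480.9 (SD) in fresh basophils.

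**Figure D2:**
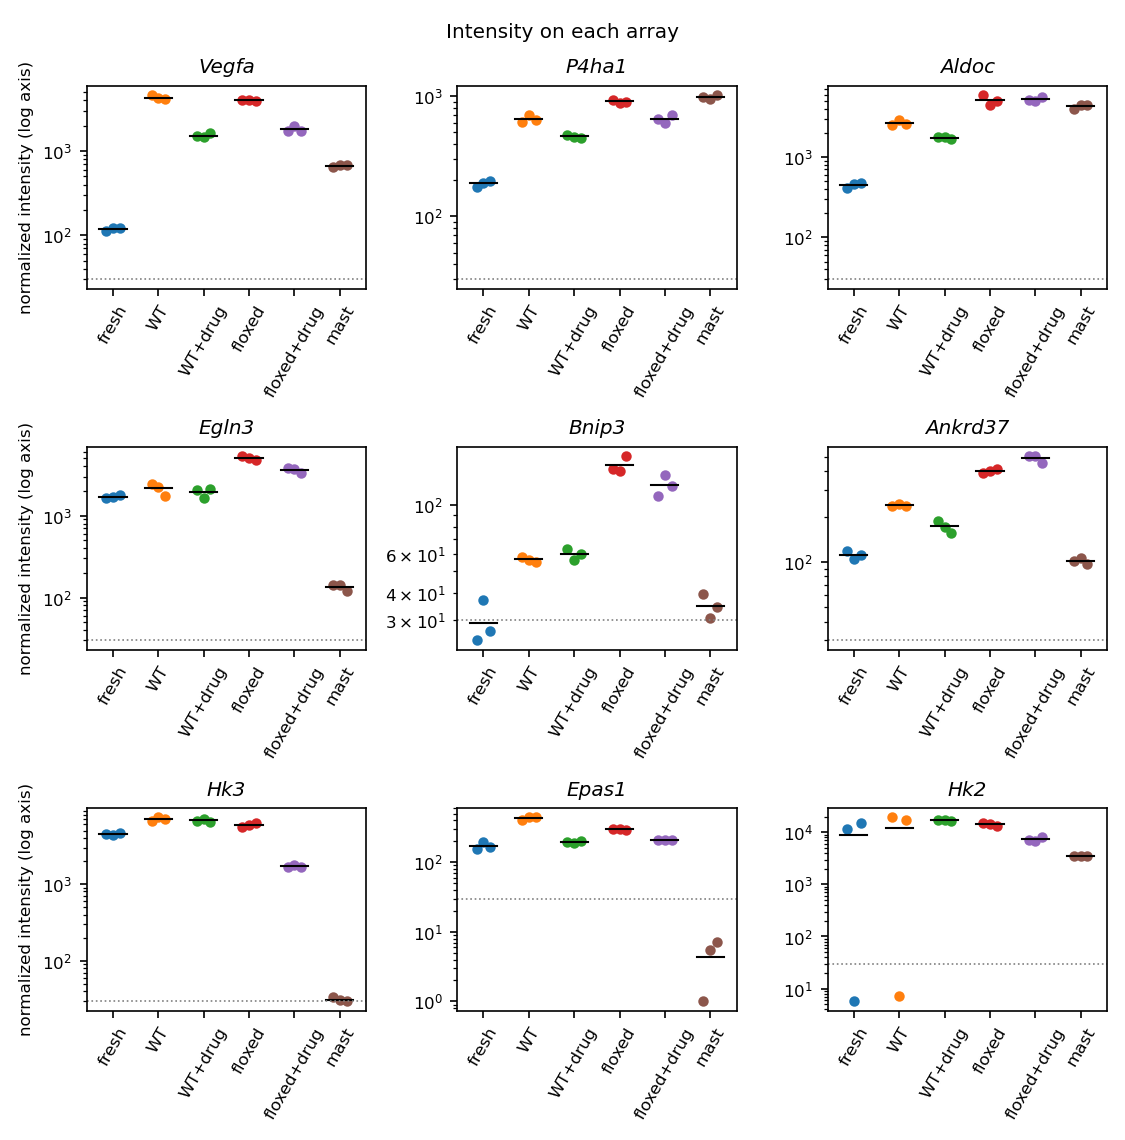
Normalized intensity (log axis) of 9 genes on each of 18 arrays by group. Points are arrays, bars are means of 3 arrays (in the Hk2 panel they include its 2 failed spots), values under 1 are drawn at 1 and the dotted line is the background limit of 30. Egln3, Bnip3 and Aldoc are higher on every floxed array than on every wild type array at the same treatment, and Vegfa is lower on every treated array than on every untreated one.

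Targets in mitochondria and stress responses split between higher and lower in floxed cells. Bnip3, a mitophagy receptor, read 24.3, 37 and 26.7 in fresh basophils, 58.3, 56.3 and 55.4 in untreated wild type, 63.3, 56.3 and 59.8 in treated wild type, 145, 143 and 167 in untreated floxed, 111, 137 and 123 in treated floxed and 39.3, 30.6 and 34.4 in mast cells. Every floxed array lay above every other array, and Bnip3 was 2.31-fold higher in untreated floxed than in untreated wild type cells (1.20 ± 0.11, adjusted p = 6.13e-07). Ankrd37, a small ankyrin repeat protein gene, read 118, 104 and 111 in fresh basophils, 234, 243 and 234 in untreated wild type, 188, 172 and 156 in treated wild type, 391, 403 and 415 in untreated floxed, 504, 502 and 456 in treated floxed and 102, 106 and 96.7 in mast cells. Floxed arrays again lay above every other array, and it was 2.68-fold higher in treated floxed than in treated wild type cells (1.42 ± 0.081, adjusted p = 7.66e-10).

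Ndrg1, a stress-responsive gene of cell differentiation, read 1598, 1597 and 1514 in fresh basophils, 3381, 3633 and 3789 in untreated wild type, 3462, 3435 and 3033 in treated wild type, 5148, 4839 and 4589 in untreated floxed, 6799.6, 6559.6 and 7171 in treated floxed and 660.5, 634 and 657 in mast cells. Treated floxed arrays were the highest and mast cells the lowest, with Ndrg1 5.42-fold higher in untreated wild type basophils than in mast cells (2.44 ± 0.080, adjusted p = 1.13e-13). Ddit4, an inhibitor of mTORC1 signalling, ran the other way between genotypes. It read 10374, 8622 and 8209 in fresh basophils, 8622, 10302 and 9563 in untreated wild type, 10302, 8848 and 10070.5 in treated wild type, 5178, 5375 and 5088 in untreated floxed, 4934, 4352 and 4489 in treated floxed and 4175, 4489 and 3744 in mast cells. Floxed and mast cell arrays all lay below the fresh and wild type arrays, and the gene was 2.12-fold lower in treated floxed than in treated wild type cells (-1.08 ± 0.11, adjusted p = 5.64e-07). Bnip3l had means of 1408.9 in mast cells to 2183.7 in treated wild type cells, and Higd1a, a mitochondrial inner membrane protein gene, of 85.8 in fresh basophils to 130.0 in treated floxed cells.

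Secreted and matrix targets were all lower in fresh than in cultured wild type basophils. Vegfa read 114, 124 and 121 in fresh basophils, 4612, 4252 and 4125 in untreated wild type, 1492, 1452 and 1625 in treated wild type, 4021, 4056 and 3945 in untreated floxed, 1732, 2005 and 1752 in treated floxed and 649, 683 and 689 in mast cells. The order was untreated cultures, treated cultures, mast cells and fresh basophils, with no overlap between these 4 levels, while untreated wild type and untreated floxed cells did not pass a difference (-0.11 ± 0.081, adjusted p = 0.453). Vegfa was 32.1-fold lower in fresh than in untreated wild type basophils (-5.00 ± 0.081, adjusted p = 5.66e-17). P4ha1, a subunit of collagen prolyl hydroxylase, read 177, 188 and 198 in fresh basophils, 610.1, 696 and 630.4 in untreated wild type, 478, 459 and 447 in treated wild type, 930.0, 879.7 and 892 in untreated floxed, 644, 595 and 697 in treated floxed and 984, 949 and 1016 in mast cells. It was 4.91-fold lower in fresh basophils than in mast cells (-2.29 ± 0.081, adjusted p = 2.47e-13).

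The related subunit P4ha2 read 0, 5.67 and 1.94 in fresh basophils, 30.6, 17.4 and 36.6 in untreated wild type, 18.2, 17.4 and 20.3 in treated wild type, 116, 157 and 136 in untreated floxed, 123, 132 and 105 in treated floxed and 80.7, 66.6 and 64.3 in mast cells. Fresh and treated wild type basophils were at background and every floxed array lay above every other array. P4ha2 was 3.49-fold higher in untreated floxed than in untreated wild type cells (1.80 ± 0.16, adjusted p = 4.21e-07), and at least 3.97-fold higher in treated floxed than in treated wild type cells (adjusted p = 4.35e-08). Adm, the vasodilator adrenomedullin, read 3.72, 4.78 and 5.94 in fresh basophils, 42.9, 56.3 and 45.7 in untreated wild type, 36.2, 19.4 and 45.7 in treated wild type, 79.3, 96.9 and 85 in untreated floxed, 93.3, 83.3 and 97.4 in treated floxed and 13.2, 3.28 and 8.39 in mast cells. Floxed arrays were again the highest, and fresh basophils and mast cells were at background. The treated floxed cells were 2.21-fold above treated wild type cells (1.14 ± 0.17, adjusted p = 6.45e-05).

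Culture was compared first, with fresh basophils against untreated wild type cultures. Of 35 members 19 were lower in fresh basophils and 1, Hk1, was higher, against 34.9% of all probes called (17.6% higher, 17.3% lower). The members' median log2 difference was -0.36 and that of all probes -0.012. By size, Vegfa, Aldoc, Eno2, P4ha1, Adm, Egln1, Epas1, P4ha2, Ndrg1 and Slc2a1 were at least 2-fold lower, 10 members against 4.74% of all probes that passed so in this direction (9.78% in either), followed by Ankrd37 (1.99-fold), Pdk1 (at least 1.32-fold), Aldoa (1.69-fold), Hif1a (1.66-fold), Bnip3, Slc16a3, Hk3, Bnip3l and Pfkm. The enzymes Ldha (0.16 ± 0.088), Tpi1 (-0.01 ± 0.072), Pgk1 (-0.13 ± 0.12) and Pkm (-0.21 ± 0.082) were not called. The call of Pfkm (-0.29 ± 0.099, adjusted p = 0.0307) was lost without fresh replicate 2 (adjusted p = 0.0582) or 3 (0.107), or without untreated wild type replicate 2 (0.124) or 3 (0.0663). Markers of other cells differed in both directions. Sums of eosinophil markers (4 of 4 above background) were 46778 to 47982 in fresh and 4508 to 4679 in cultured wild type basophils, besides the neutrophil sums above. Sums of 7 mast cell markers were 63063 to 66110 in fresh and 78017 to 80499 in cultured wild type basophils, with Mcpt2 and Tph1 at background in fresh cells and all 7 above it in cultures. Most of both sums was Cpa3, with means of 63431.1 in fresh and 64408.4 in cultured cells. Mean intensities of Cma1 were 86.4 and 8788.1, of Kit 280.0 and 2224.9, of Tph1 17.3 and 1662.6 and of Mcpt2 12.5 and 519.4 in fresh and cultured cells. Sums of 5 megakaryocyte and platelet markers were 1647 to 1888 in fresh and 10733 to 12418 in cultured cells, with Itga2b at background in both. The part of these cells in the differences was not tested.

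Cell type with both arms cultured in IL-3 was compared between untreated wild type basophils and mast cells. Members higher in basophils numbered 22 and members lower 4, of 35, against 39.2% of all probes called (16.9% higher, 22.3% lower). Median log2 differences were 0.52 for the members and -0.045 for all probes. Hk3, Epas1, Egln3, Vegfa (6.30-fold), Ndrg1, Slc2a3, Slc16a3, Adm (at least 1.60-fold), Eno2 (2.38-fold), Ddit4 (2.29-fold) and Ankrd37 (2.16-fold) were the members higher by at least 1 log2 unit, 11 against 6.79% of all probes (12.7% in either direction), and Pfkfb3 (1.69-fold), Pdk1, Pkm (1.56-fold), Slc2a1, Hif1a, Bnip3l and Bnip3 followed. Lower members were P4ha2 (1.99-fold), Hk1 (1.82-fold), Aldoc (1.62-fold) and P4ha1 (1.51-fold). The small differences of Pfkm, Aldoa, Pfkp and Pgam1 (0.25 to 0.28) were called but not held. Aldoa was lost without any of the 3 mast cell arrays or untreated wild type replicate 2 or 3 (adjusted p of 0.0546 to 0.112), and Pfkm without the same arrays (0.0620 to 0.124). Pfkp was lost without mast cell replicate 1 or 3 or untreated wild type replicate 2 (0.0512 to 0.120), and Pgam1 without mast cell replicate 2 or 3 or untreated wild type replicate 2 or 3 (0.0579 to 0.0875).

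Fresh basophils against mast cells, in which cell type and culture coincide, had 12 members higher and 10 lower, against 40.6% of all probes called (18.3% higher, 22.3% lower) and with medians of 0.04 for members and -0.044 for all probes. Without between-array normalization the split was 20 higher and 6 lower. Of the members that passed, 11 differed by at least 2-fold, against 12.9% of all probes. Higher members were led by Hk3 (97.1-fold), Egln3 (11.4-fold), Epas1, Slc2a3 (2.98-fold), Ndrg1 (2.38-fold) and Ddit4 (2.18-fold). Slc16a3 (1.77-fold), Pfkfb3 (1.60-fold), Pkm (1.36-fold), Pfkfb4 (1.27-fold) and Pfkp (1.26-fold) also passed. Lower members were Aldoc (9.22-fold), Vegfa (5.09-fold), P4ha1, P4ha2 (at least 2.34-fold), Egln1 (at least 3.08-fold), Eno2 (at least 1.37-fold), Aldoa (1.40-fold) and, with a sign that turned without between-array normalization, Slc2a1 (-0.53), Hk1 (-0.49) and Higd1a (-0.39). Higd1a also lost its call without fresh replicate 1 (adjusted p = 0.0507) or mast cell replicate 1 (0.0540). Pfkl, called with both groups at background, lost it without fresh replicate 1 (0.0609) or mast cell replicate 1 (0.0533) or 2 (0.0581). This comparison and the one of cultured basophils share the mast cell arrays, and this one and that of culture share the fresh arrays.

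**Figure D3:**
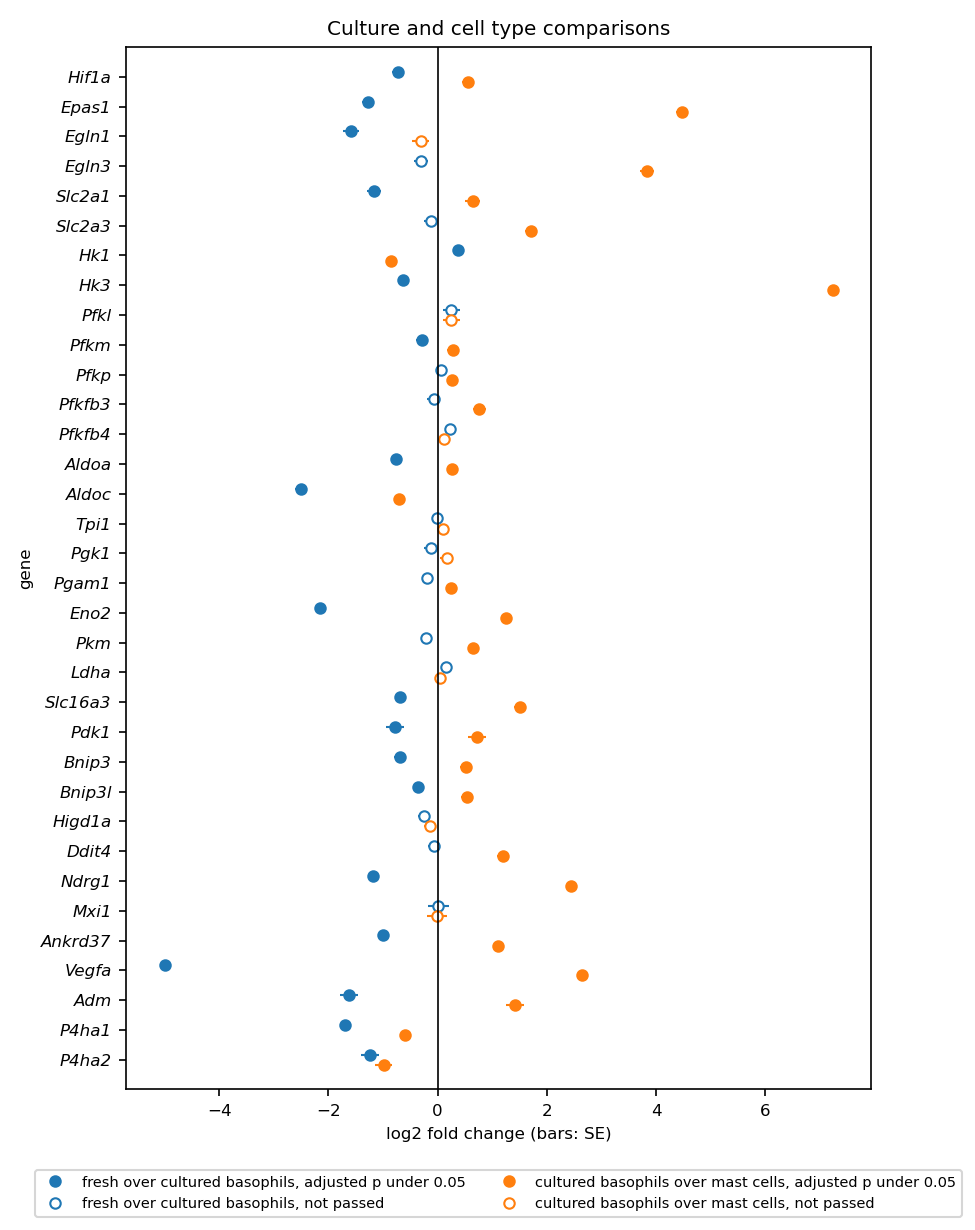
Log2 differences with SE for 34 genes (Hk2 left out) between fresh and untreated wild type basophils and between untreated wild type basophils and mast cells, from the model of 18 arrays. The comparisons share the untreated wild type arrays, so their values are not independent. Vegfa lies at -5.00 in the first and Hk3 at 7.24 in the second.

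Floxed and wild type basophils were compared without the drug, where Cebpa itself was 2.39-fold lower. Here 14 members were higher and 3 lower in floxed cells, of 35, against 15.8% of all probes called (8.54% higher, 7.27% lower). The members' median was 0.23 and that of all probes 0.002. P4ha2, Egln3 and Bnip3 were more than 2-fold higher, against 0.643% of all probes that passed so in that direction (1.79% in either). Aldoc (1.91-fold), Pdk1 (1.68-fold), Ankrd37 (1.65-fold), Adm (1.60-fold), Pgk1 (1.48-fold), Pfkp (1.42-fold), P4ha1 (1.39-fold), Ndrg1 (1.35-fold), Hk1 (1.27-fold), Pfkl and Pfkfb3 followed. Lower in floxed cells were Ddit4 (1.81-fold), Epas1 (1.43-fold) and Hk3 (1.20-fold). With median scaling the members split into 16 higher and 1 lower. Pfkfb3 (0.36, adjusted p = 0.048) was lost without any of the 6 arrays in turn (0.0520 to 0.167). Pfkl (0.54, adjusted p = 0.0309) was lost without any array but untreated floxed replicate 3 (0.0688 to 0.145). Hk3 (-0.26, adjusted p = 0.0242) was lost without untreated wild type replicate 2 or 3 or untreated floxed replicate 1 or 2 (0.0600 to 0.107), and Adm (0.68, adjusted p = 0.0115) without untreated wild type replicate 1 (0.0513) or untreated floxed replicate 2 (0.0525).

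With the drug, 18 members were higher and 6 lower in floxed than in wild type cells, against 30.7% of all probes called (15.9% higher, 14.9% lower), with medians of 0.26 and -0.004. Higher by at least 1 log2 unit were 7 members, P4ha2, Aldoc, Eno2, Ankrd37, Adm, Ndrg1 (2.06-fold) and Pdk1 (at least 1.50-fold), against 2.75% of all probes (5.4% in either direction). Egln3 (1.89-fold), Bnip3 (1.83-fold), Pfkp (1.82-fold), Pgk1 (1.66-fold), Pfkfb3 (1.51-fold), P4ha1 (1.38-fold) and, by 1.20 to 1.23-fold, Aldoa, Hk1, Ldha, Vegfa and Tpi1 were also higher. Lower members were Hk3, Ddit4, Bnip3l (1.50-fold), Hif1a (1.47-fold), Slc2a1 (1.46-fold) and Slc16a3 (1.45-fold). Hk2 (-1.19) was lower without overlap but passed only with its failed spots, which were in other groups, set to missing. Among the smallest, Ldha was lost without treated wild type replicate 1, 2 or 3 or treated floxed replicate 1 or 3 (adjusted p of 0.0556 to 0.113), and Vegfa without treated wild type replicate 1 or 2 or treated floxed replicate 2 (0.0643 to 0.111). Aldoa was lost without treated wild type replicate 1 (0.0997) or treated floxed replicate 3 (0.0964), and Hk1 without treated floxed replicate 3 (0.0513). A second Hk1 probe was lower in treated floxed cells (-0.41, adjusted p = 0.00494), so the direction of Hk1 depends on the probe. Cell markers differed between the treated genotypes too. Sums of 7 mast cell markers were 121370 to 128920 in treated floxed and 84803 to 86080 in treated wild type cells, all 7 above background in both. Cpa3, with means of 64323.1 and 65385.8, was a large part of both sums. Mean intensities of Tpsb2 were 8838.8 and 633.3, of Kit 13555.6 and 4746.9 and of Mitf 1736.2 and 429.0, while that of Prss34 was 20028 in treated floxed and 46128 in treated wild type cells. Sums of 8 basophil markers were 142397 to 148447 and 184753 to 192107, and sums of 4 eosinophil markers 10749 to 11044 and 3620 to 3828. Single markers went both ways. Mean Fcer1a (22649.4 and 11289.1), Ms4a2 (4183.6 and 3470.4), Mcpt8 and Il4 were higher in treated floxed cells. Prss34, Ccl3 (21953.1 and 50584.1), Cd200r3 and Il3ra were lower. Of the eosinophil markers, Prg2 (10555.4 and 3098.5) and Epx (165.5 and 101.0) were higher, and Alox15 (111.7 and 381.2) and Ccr3 (43.9 and 109.5) lower. Without the drug, mast cell sums were 75811 to 76405 in floxed and 78017 to 80499 in wild type cells, and eosinophil sums 7345 to 8357 and 4508 to 4679. There too Prg2 (7639.6 and 3890.2) and, slightly, Epx (125.6 and 122.0) were higher in floxed cells. Alox15 (127.9 and 470.1) and Ccr3 (43.0 and 119.0) were lower. Their part in the members' differences was not tested.

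Treated and untreated comparisons of the genotypes share no array. Of the 14 members higher in untreated floxed cells, 13 were also higher in treated floxed cells (92.9%, and 72.2% of the 18 higher there): Adm, Aldoc, Ankrd37, Bnip3, Egln3, Hk1 (on its brightest probe only), Ndrg1, P4ha1, P4ha2, Pdk1, Pfkfb3, Pfkp and Pgk1. Over all probes, 67.8% of those higher in untreated floxed cells were also higher in treated floxed cells, which is 36.5% of those higher there. Ddit4 and Hk3 were lower in both. No member was called in opposite directions.

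**Figure D4:**
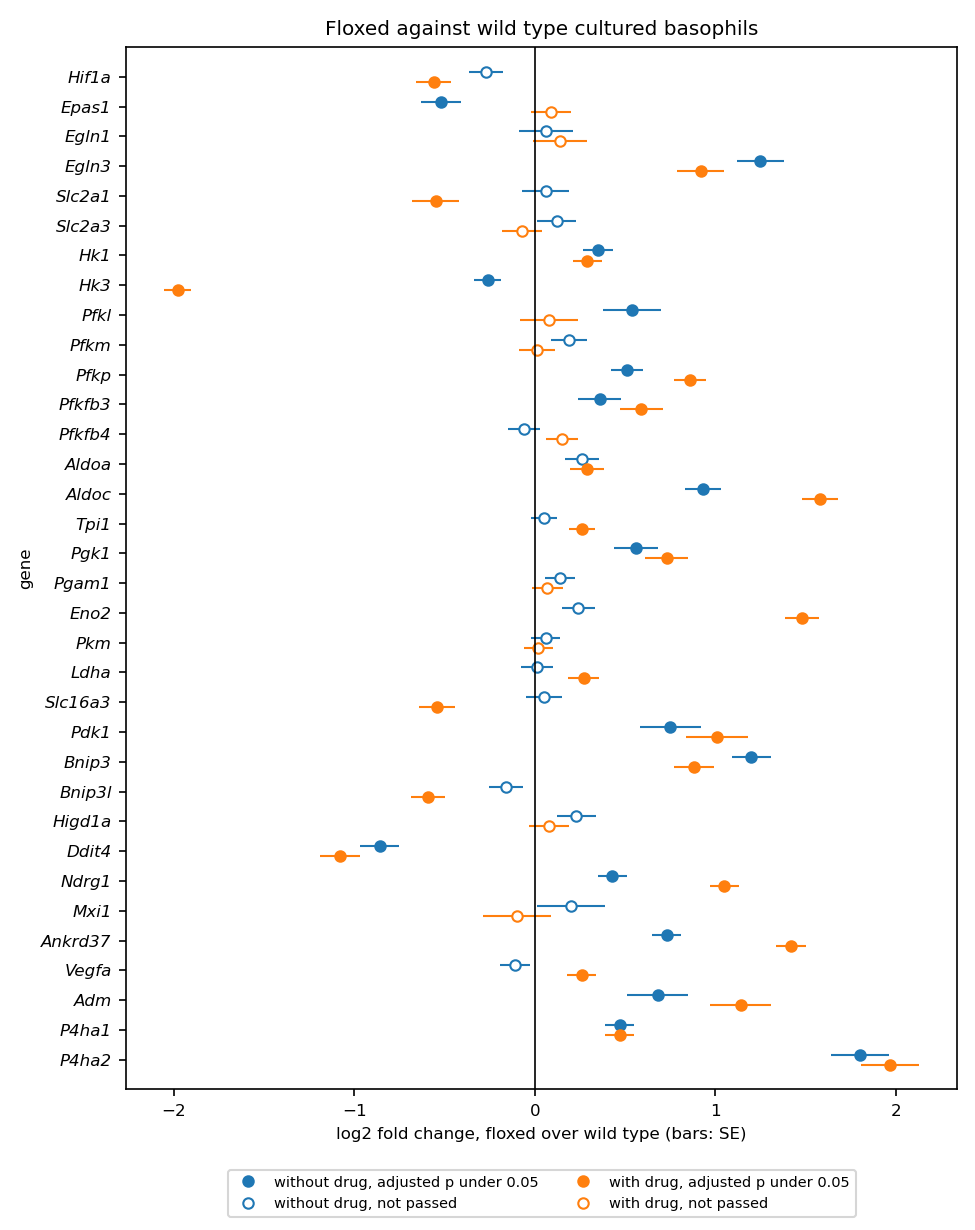
Log2 differences with SE between floxed and wild type basophils for 34 genes (Hk2 left out), untreated and treated, from the model of 18 arrays. Points to the right of 0 are higher in floxed cells. P4ha2 lies at 1.80 untreated and 1.97 treated, and Hk3 at -0.26 and -1.98.

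The drug in wild type cells, which have no floxed allele, gave 3 members higher and 11 lower, against 21.3% of all probes called (11.2% higher, 10.1% lower), with medians of -0.12 and 0.006. Vegfa was 2.82-fold lower (-1.50 ± 0.081, adjusted p = 4.72e-09) and Epas1 2.11-fold lower (-1.08 ± 0.11, adjusted p = 3.78e-06), the 2 members past 2-fold, as were 1.21% of all probes. Pdk1 (at least 1.32-fold), Aldoc (1.51-fold), P4ha1 (1.38-fold), Pfkp, Ankrd37, Pfkfb4, Pfkfb3, Ldha and Eno2 were lower as well. Egln1 (1.79-fold), Hif1a (1.35-fold) and Hk1 (1.23-fold) were higher. Scaling moved the split to 2 higher and 4 lower with median scaling and 1 higher and 19 lower without between-array normalization. Calls lost by leaving out an array were those of Eno2 (without treated replicate 1 or untreated replicate 1 or 3, adjusted p of 0.0584 to 0.0872), Hk1 (without treated replicate 1, 0.0512, or untreated replicate 3, 0.0563) and Ldha (without untreated replicate 2, 0.0781). Pfkfb3 was lost without any array but treated replicate 3 (0.0857 to 0.178). Another Ldha probe was higher with the drug (0.58, adjusted p = 1.75e-04), so no direction of Ldha holds across its probes.

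In floxed cells, where Cebpa was 12.3-fold lower with the drug, the drug gave 5 members higher and 9 lower, against 19.6% of all probes called (9.92% higher, 9.67% lower), with medians of -0.16 and -0.003. Hk3 was 3.45-fold lower (-1.79 ± 0.075, adjusted p = 3.97e-11) and Vegfa 2.18-fold lower (-1.13 ± 0.081, adjusted p = 2.76e-08), again the 2 members past 2-fold, as were 2.52% of all probes. Slc16a3 (1.75-fold), Pfkl, Pdk1 (1.53-fold), Epas1 (1.39-fold), P4ha1 (1.39-fold), Egln3 (1.39-fold) and Bnip3l (1.26-fold) were lower. Egln1 (1.89-fold), Eno2 (1.89-fold), Ndrg1 (1.41-fold), Ankrd37 (1.20-fold) and Tpi1 were higher, though Tpi1 (0.31) turned to -0.06 with median scaling. The split became 2 higher and 13 lower with median scaling, 3 and 12 with no scaling at all, and 4 and 14 where arrays were scaled on their brighter probes. Ankrd37 was lost without any array but treated replicate 3 (adjusted p of 0.0517 to 0.102), Bnip3l without treated replicate 1 or 2 or untreated replicate 1 (0.0662 to 0.0780) and Pfkl without treated replicate 3 or untreated replicate 1 or 2 (0.0532 to 0.0670). Pdk1 was lost without treated replicate 3 (0.0804) or untreated replicate 2 (0.0727), and Egln3 without treated replicate 3 (0.0588).

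The drug effects in the 2 genotypes share no array. Epas1, P4ha1, Pdk1 and Vegfa were lower with the drug in both (36.4% of the 11 lower in wild type and 44.4% of the 9 lower in floxed cells), where over all probes the shares were 33.9% and 35.5%. Egln1 was higher in both, on its brightest probe. Ankrd37 and Eno2 went in opposite directions: with the drug Eno2 was 1.25-fold lower in wild type and 1.89-fold higher in floxed cells. With median scaling the drug calls of Ankrd37 in both genotypes and of Eno2 in wild type cells were lost. The difference between the drug effects was itself tested as an interaction, for which 10 of 35 members passed (6 positive, 4 negative) against 12.6% of all probes (6.17% positive, 6.46% negative), with medians of -0.01 and -0.009. The members that passed were Hk3 (-1.72 ± 0.11, adjusted p = 1.53e-08), Eno2 (1.24 ± 0.13, adjusted p = 6.92e-06), Ankrd37 (0.70), Aldoc (0.65), Ndrg1 (0.62), Slc2a1 (-0.61), Epas1 (0.60), Slc16a3 (-0.58), Bnip3l (-0.43) and Vegfa (0.37). Of these, 2 differed by at least 2-fold, as did 2.66% of all probes. With median scaling 1 was positive and 3 negative, and without normalization 7 and 1. Hk2 passed the interaction only with its failed spots set to missing (-0.83 ± 0.16, adjusted p = 0.00263). P4ha1 fell by 0.47 in each genotype, with a difference of -0.01 ± 0.11 (adjusted p = 0.986), and Egln1 differed by 0.08 ± 0.21 (adjusted p = 0.878) on its brightest probe, while its second probe passed (0.57, adjusted p = 0.0397). For Ndrg1 the second probe did not pass the interaction (0.29, adjusted p = 0.167). Slc2a1 was lost without any array but treated wild type replicate 2, untreated wild type replicate 2, treated floxed replicate 3 and untreated floxed replicate 3 (adjusted p of 0.0518 to 0.1). Bnip3l (0.0575 to 0.106) kept its call only without treated wild type replicate 3, treated floxed replicate 3 or untreated floxed replicate 2. Vegfa (0.0638 to 0.109) kept it only without treated wild type replicate 3, untreated wild type replicate 3, treated floxed replicate 1 or treated floxed replicate 3. With the replicate number as a block, Bnip3l and Vegfa were also lost (0.0606 and 0.0669).

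**Figure D5:**
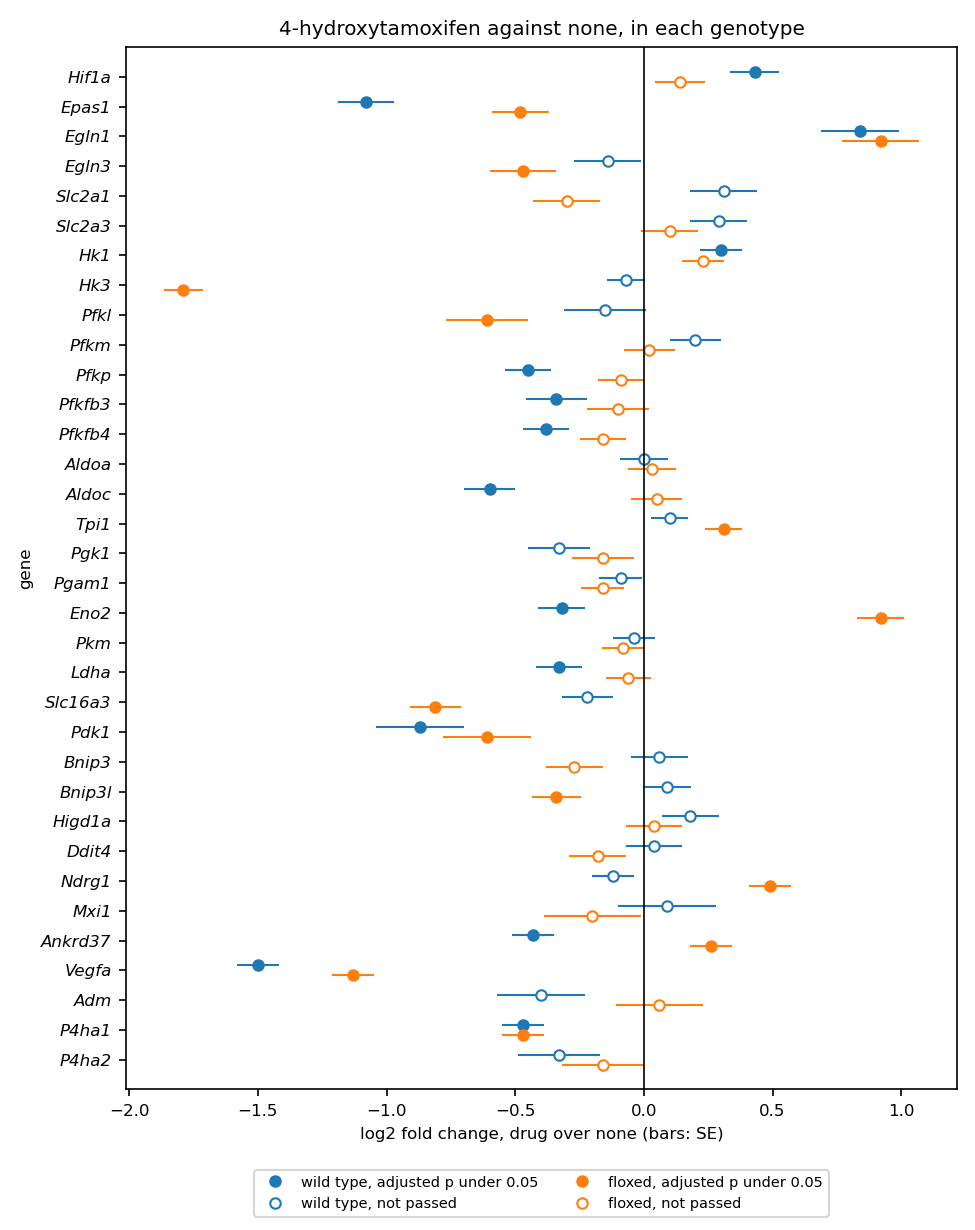
Log2 drug effects (treated minus untreated) with SE for 34 genes (Hk2 left out) in wild type and in floxed basophils, from the model of 18 arrays. Points left of 0 are lower with the drug. Vegfa lies at -1.50 in wild type and -1.13 in floxed cells, and Hk3 at -0.07 and -1.79.

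Further probes, 8 in all, were present for 6 members (Epas1, Egln1, Hk1, Ldha, Ndrg1 and P4ha2), giving 64 results. Of these, 16 were called with the same sign as the brightest probe and 2 with the opposite sign (Hk1 in treated floxed cells and Ldha with the drug in wild type cells), 20 were called on the brightest probe only, 12 on the further probe only and 14 on neither. The second Epas1 probe was at background in all 6 groups and passed nowhere. The second Egln1 probe was lower in fresh than in cultured wild type basophils, like the first (-1.37, adjusted p = 9.07e-08), but its drug effect in wild type cells did not pass (0.26, adjusted p = 0.153). It was higher in treated floxed than in treated wild type cells (0.47, adjusted p = 0.00686), where the first did not pass. The second Ndrg1 probe was called higher in both floxed comparisons, like the first, and was higher with the drug in wild type cells (0.52, adjusted p = 5.02e-04), where the first read -0.12 and did not pass. The second Hk1 probe passed the interaction (-0.53, adjusted p = 0.0215), as did a further P4ha2 probe (0.73, adjusted p = 0.0307), and neither gene passed it on the brightest probe. Both further Ldha probes were higher in fresh than in cultured wild type basophils (0.70, adjusted p = 6.15e-06, and 0.75, adjusted p = 4.58e-05), where the brightest probe did not pass.

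Genes of the same pathways outside the members were read from lists. Of 30 measured further HIF targets, 5 were higher and 6 lower in untreated floxed cells (median 0.03), and 9 higher and 7 lower in treated floxed cells (median 0.18). The shares called were 36.7% and 53.3%, against 15.8% and 30.7% of all probes. Carbonic anhydrase Car9 was 4.61-fold higher (2.20 ± 0.094, adjusted p = 1.01e-10) and Ak4, an adenylate kinase, 2.48-fold higher in untreated floxed cells, as was the mitochondrial Fam162a (2.14-fold). In treated floxed cells the haem oxygenase gene Hmox1 (3.40-fold) and the chemokine receptor gene Cxcr4 (3.63-fold) were lower and Car9 was higher (3.52-fold). In fresh against cultured wild type basophils 4 of these targets were higher and 11 lower. That was 15 of the 30 called, against 34.9% of all probes (17.6% higher, 17.3% lower). The circadian and hypoxia repressor Bhlhe40 was 8.11-fold lower, the oxidoreductase Ero1a 3.93-fold and the histone demethylase Kdm4b 3.21-fold lower, and Cxcr4 was 4.82-fold higher. Between cultured wild type basophils and mast cells 12 were higher and 8 lower (66.7% called, against 39.2% of all probes). There Hmox1 was 6.98-fold and Cxcr4 at least 5.44-fold higher and carbonic anhydrase Car12 12.4-fold lower in basophils. In fresh basophils against mast cells, 7 were higher and 15 lower (73.3% called, against 40.6% of all probes). Here Cxcr4 was at least 28.3-fold higher and Bhlhe40 14.4-fold and Car12 10.2-fold lower.

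The drug gave 10 further HIF targets higher and 3 lower in wild type cells and 7 higher and 4 lower in floxed cells. The shares called were 43.3% and 36.7%, against 21.3% and 19.6% of all probes. Hmox1 was 2.44-fold and the corepressor subunit Sap30 1.98-fold higher, and the glycogen synthase Gys1 1.83-fold lower, in wild type cells. In floxed cells Stc2, a secreted glycoprotein gene, was 2.60-fold and Sap30 2.19-fold higher. The interaction was positive for Stc2 (1.68 ± 0.16, adjusted p = 2.39e-06) and negative for Hmox1 (-1.31 ± 0.12, adjusted p = 9.00e-07).

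Further glycolysis genes (26 measured, 18 above background in some group) gave 2 higher and 4 lower in untreated and 3 higher and 5 lower in treated floxed cells, with medians of 0.03 and 0.01. The shares called were 23.1% and 30.8%, against 15.8% and 30.7% of all probes. Ldhc, the lactate dehydrogenase known from testis, was 21.1-fold higher in cultured wild type basophils (4.40 ± 0.091, adjusted p = 2.91e-16) and 16.8-fold higher in fresh basophils than in mast cells. It was 4.20-fold lower in treated floxed than in treated wild type cells, 1.81-fold lower in the untreated comparison and 2.41-fold lower with the drug in floxed cells, with a negative interaction (-1.21 ± 0.13, adjusted p = 7.63e-06). Hkdc1, a hexokinase domain gene, was at least 1.75-fold higher with the drug in floxed cells, where the untreated cells were at background, and its interaction was positive (2.23 ± 0.30, adjusted p = 7.48e-05). Of 14 called genes in fresh against cultured wild type basophils (53.8%, against 34.9% of all probes), 7 were higher and 7 lower.

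Of 6 pentose phosphate genes, 1 was higher and 2 were lower in treated floxed cells, against 30.7% of all probes called there. In fresh basophils against mast cells 3 of the 6 passed, each higher in fresh cells, against 40.6% of all probes called. HIF pathway regulators (13 measured) had 1 higher and 1 lower member in untreated and 2 higher and 1 lower in treated floxed cells. Their shares called, 15.4% and 23.1%, were no higher than the 15.8% and 30.7% of all probes. Genes of pyruvate use in mitochondria (13 measured) include Pdk2 and Pdk3, kinases related to Pdk1, so the list mixes opposite actions on pyruvate dehydrogenase. In untreated floxed cells 4 passed (30.8%, against 15.8% of all probes), each higher there, with Pdk2 (0.37) among them. In fresh against cultured wild type basophils 7 passed (53.8%, against 34.9%), each higher in fresh cells, with Pdk3 (1.30) among them. The members had 1 higher and 19 lower there. In this last list Pdhx, a pyruvate dehydrogenase component, was 2.15-fold lower with the drug in wild type cells (-1.10 ± 0.31, adjusted p = 0.0158). Of 6 housekeeping genes, 1 was higher in untreated floxed, 2 were higher in treated floxed and 3 were higher and 1 lower in fresh against cultured wild type basophils. Their shares called were 16.7%, 33.3% and 66.7%, against 15.8%, 30.7% and 34.9% of all probes.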

How the data were processed

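The authors deposited linear probe intensity values of 18 arrays. Values below 0 (lowest -9) show that a background had been subtracted. How the arrays were scanned, and whether they were normalized before deposit, was not given in the sources used here. No genome was used. Probes took gene symbols from the platform annotation (21876 of 26423 named, 4547 unnamed).

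From the deposited intensities, arrays were quantile normalized together and transformed as log2(intensity + 16), a scale that understates the change of dim genes. A probe under 30 on every array of a group was treated as at background. A mean per group was fitted to all 18 arrays with limma 3.58.1 (R 4.3.3; lmFit, then eBayes), from which 8 comparisons were read. Two-sided p-values were adjusted over all 26423 probes by Benjamini and Hochberg's method and called under 0.05. The script was checked on simulated data. Members, companion lists and markers were chosen with earlier results of these data known, so no p-value was adjusted over a list alone and no list was tested as a set. Every measured member was named, with all array values where it passed with at least a 2-fold difference outside the interaction. Members that passed were led by size, up to 12 per direction, and up to 4 genes of the companion lists were named per comparison. Alternatives were other scalings, leaving out the 30% of probes that were dimmest, an offset of 50, array weights, an intensity trend, a fit per experiment, averaged probes, the replicate number as a block, a requirement of 2-fold and leaving out each array. Added after seeing the data was a fit with failed spots (under 30 where the other arrays of the group were bright) set to missing. The number of arrays limits the precision. Replicate numbers gave no sign of pairing the samples. Promoter windows and their build came from RefSeq tables. Figures were drawn with matplotlib 3.10.9.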

Additional observations from a re-analysis of the deposited data

Results flagged for a closer look

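The drug effect differed between floxed and wild type basophils, by the test of the difference itself, for 10 of the 35 measured genes. The hexokinase gene Hk3 had a difference of -1.72 on the log2 scale (-0.07 in wild type and -1.79 in floxed cells), and Eno2 had 1.24 (-0.32 and 0.92). Ankrd37 had 0.70 (-0.43 and 0.26), Aldoc 0.65 (-0.60 and 0.05) and Ndrg1 0.62 (-0.12 and 0.49), where a second Ndrg1 probe did not pass (0.29, adjusted p = 0.167 by limma). Epas1 had 0.60 (-1.08 and -0.48) and Vegfa 0.37 (-1.50 and -1.13), both lower with the drug in each genotype and by more in wild type cells. Slc2a1 had -0.61 (0.31 and -0.30, neither called alone), Slc16a3 -0.58 (-0.22 and -0.81) and Bnip3l -0.43 (0.09 and -0.34). For 6 of the 10 genes (Ankrd37, Eno2, Slc2a1, Aldoc, Ndrg1 and Bnip3l) the effects in the 2 genotypes had opposite signs, and for 2 of these, Ankrd37 and Eno2, both effects were called. Slc2a1, Bnip3l and Vegfa lost their calls when certain arrays were left out. With median scaling Ankrd37, Aldoc, Ndrg1, Epas1, Bnip3l and Vegfa lost theirs (adjusted p of 0.0567 to 0.775 by limma). Epas1 also lost its call with probes averaged (0.0571). The drug effects of Ankrd37 in both genotypes and of Eno2 in wild type cells were not called with median scaling (0.293, 0.585 and 0.666). No group had enough arrays for a search for outlying samples.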

How the results depend on the processing

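Over 280 results (35 genes in 8 comparisons), 147 were called and 99 of these kept their direction and call in every setting run except the 2-fold threshold. Those that did not had a log2 difference of at most 0.75 in size, and at most 0.68 where an array left out ended the call. A change of sign with no call in either fit occurred 145 times, counted over pairs of a result and a setting. Median scaling moved the count of members called to 6 for the drug effect in wild type cells and 4 for the interaction; the cause was not tested. A 2-fold threshold left 11 members in fresh basophils against mast cells, 9 in treated and 3 in untreated floxed against wild type cells, 2 for the drug in wild type cells, 2 for the drug in floxed cells, 2 for the interaction, 10 in fresh against cultured wild type basophils and 11 in those against mast cells, since it asks for more. Leaving out each array gave 20 to 23, 21 to 23, 13 to 16, 11 to 15, 11 to 13, 7 to 10, 19 to 20 and 22 to 26 in the same order. A fit per experiment gave 7 for the interaction and 22 for cultured basophils against mast cells. Without between-array normalization the median of all probes moved by 0.20 in fresh basophils against mast cells, 0.15 in cultured basophils against mast cells and 0.12 in the interaction. In the first of these Hif1a turned to 0.32, Higd1a to 0.04, Hk1 to 0.10, Pfkm to 0.46 and Slc2a1 to 0.00, and with median scaling Tpi1 turned to -0.06 for the drug in floxed cells. With probes averaged, Hk1 turned to -0.06 in treated floxed cells, Ldha to 0.16 and 0.20 for the drug in wild type and floxed cells, and P4ha2 to 0.36 for the drug in floxed cells. With failed spots missing, Hk2 turned to 1.90 in fresh basophils against mast cells, -0.37 in untreated floxed cells and 2.38 in cultured basophils against mast cells, and to -0.12, not called in either, for the drug in wild type cells. Median scaling moved the all-probe median of the interaction by -0.12.

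With the replicate number as a block, the counts were 22, 24, 17, 14, 14, 8, 20 and 26 in the order above, so Bnip3l and Vegfa were lost for the interaction, whose count was 10 without the block, and no count moved by over 1.5 times. The numbers did not pair the samples: across 10686 probes, deviations of same-numbered cultured basophil arrays correlated at -0.344 to 0.232. Of these pairs 13 of 18 lay under 0.1, and 2 of 12 arrays were closest to their own number.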
